A study of Mus musculus with 6 samples.

Results

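The mouse genes Apoa1, Apoa2, Apoa4, Apoa5, Apob, Apoc1, Apoc2, Apoc3, Apoe and Apom encode the main proteins of plasma lipoproteins. They were taken by gene symbol, 10 of the 39179 genes listed in each library, and all 10 were tested. The libraries were poly(A) RNA-seq of liver tumours from C57BL/6 mice with no germline change named. The tumours arose after hydrodynamic injection, which pushes DNA from the tail vein into hepatocytes. The DNA was a set of transposons that encode Myc, delivered in both groups, together with NrasG12V, an activated Ras protein, in the Myc/NrasG12V group (3 libraries) or with Akt1, a kinase of insulin and growth factor signalling, in the Myc/Akt1 group (3 libraries). The labels gave neither the age nor the sex of the mice, nor whether replicate tumours were taken from different mice, so the p-values measure only the spread between these samples. The promoters that drive the transgenes are not given in them. No untreated liver was analysed here, so each level is set only against the other tumour group.

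Lipoproteins carry cholesterol and triglycerides in blood, and their apolipoproteins hold the particle together, bind its receptors and switch the enzymes that digest its lipids. Hepatocytes make most of them, and the small intestine makes a share of ApoA-I, ApoA-IV and ApoB. ApoB is the scaffold of very low density lipoproteins, ApoA-I and ApoA-II form high density lipoproteins (HDL), and the C proteins set how fast lipoprotein lipase clears triglycerides.

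Apoa1, Apoc3, Apoa4 and Apoa5 lie in a 43340-base stretch of chromosome 9, and Apoc2, Apoc1 and Apoe in a 27610-base stretch of chromosome 7. Apoa2 is on chromosome 1, Apob on chromosome 12 and Apom on chromosome 17. RefSeq entries for the start regions were found for 8 of the 10, all but Apoc1 and Apoc3. The bases upstream of Apoa1 and Apoc2, which rose in Myc/NrasG12V, are shown beside those of Apob, which did not pass the test. They are given 5′ to 3′ on the strand of the gene, from RefSeq GRCm38.p6, without bases that GENCODE M21 puts in an exon. Capitals mark the motifs found.
Apoa1, 200 bases at chr9:46228380-46228579, plus strand: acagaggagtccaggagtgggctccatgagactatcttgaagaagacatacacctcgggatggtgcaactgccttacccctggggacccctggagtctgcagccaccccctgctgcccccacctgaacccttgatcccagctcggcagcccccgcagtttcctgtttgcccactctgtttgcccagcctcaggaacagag
Apoc2, 141 bases at chr7:19677942-19678082, minus strand: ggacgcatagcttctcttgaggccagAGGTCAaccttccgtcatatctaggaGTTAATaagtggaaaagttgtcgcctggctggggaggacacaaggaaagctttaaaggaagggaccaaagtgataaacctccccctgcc
Apob, 221 bases at chr12:7977427-7977647, plus strand: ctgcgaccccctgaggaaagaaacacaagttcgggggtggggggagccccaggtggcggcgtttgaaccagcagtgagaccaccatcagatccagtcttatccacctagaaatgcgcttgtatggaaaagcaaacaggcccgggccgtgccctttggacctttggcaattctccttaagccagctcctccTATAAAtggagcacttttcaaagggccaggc
Exact matches were sought on both strands in the 250 bases before each RefSeq start. The motifs were AGGTCA, bound by nuclear receptors, CAAAGTCCA (HNF4), CAAAGGTCA (nuclear receptor dimers), TGTTTAC (FOXA), GTTAAT (HNF1), CACGTG (E-box) and TATAAA, a core promoter element. CAAAGGTCA holds AGGTCA within it. The Apoc2 window held AGGTCA, present in 14.0% of 32851 RefSeq windows of that length, and GTTAAT, present in 6.43%. The Apob window held TATAAA, present in 12.4%, 60 to 55 bases before the RefSeq start, which lies downstream of the GENCODE start given for the gene. The Apoa1 window held none of the 7 motifs, which says only that these letters were not in it. Among the others, Apoa2 and Apoa5 also held TATAAA, Apoa2 held TGTTTAC (3.17% of windows) and Apoa5 held CACGTG (6.02%). CAAAGTCCA and CAAAGGTCA, found in 0.384% and 0.426% of windows, were in none of the 8. The windows of Apoa4 and Apom lay in annotated exons and are not shown.

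The 6 libraries held 17881282 to 27865094 reads in genes. The delivered genes, where transgene reads aligned to the endogenous loci, fitted the labels: Nras averaged 171 CPM (reads of a gene per 1000000 reads in genes) in Myc/NrasG12V and 56.0 CPM in Myc/Akt1, Akt1 averaged 65.1 CPM in Myc/NrasG12V and 279.9 CPM in Myc/Akt1, and Myc averaged 153 CPM in Myc/NrasG12V and 154 CPM in Myc/Akt1. Myc/NrasG12V library 3 stood apart from its group in the summed erythroid and neutrophil markers and in several members. Values without it are given where a result rests on it. Of 14365 genes tested, limma called 1437 with more transcript in Myc/NrasG12V and 4240 with less on the CPM scale (Benjamini-Hochberg adjusted p under 0.05). With TMM factors, which correct for the make-up of a library, limma called 2331 with more in Myc/NrasG12V and 2565 with less. Median-of-ratios factors gave 2366 with more and 2515 with less, and upper-quartile factors 2544 with more and 2343 with less. Over all tested genes the log2 differences had a median of -0.26 by CPM and 0.00 with TMM factors. Log2 differences are by CPM and can be read against that shift, except ratios of members within a library and where TMM factors or another setting is named. Albumin took 9.07 to 12.4% of the reads in Myc/NrasG12V and 2.99 to 3.85% in Myc/Akt1. Mitochondrially encoded transcripts took 2.05 to 3.99% in Myc/NrasG12V and 7.62 to 9.09% in Myc/Akt1. All 8 hepatocyte markers were detected. Their summed levels, of which Alb is most, were 108948 to 135078 CPM in Myc/NrasG12V and 38764 to 50413 CPM in Myc/Akt1. The sum does not stand for the list, whose median log2 difference was -0.03. Without overlap between groups, Alb and Trf lay higher in Myc/NrasG12V, and Ttr, Asgr1 and Asgr2 lay lower. Of the 8, 1 (Trf) was called, higher in Myc/NrasG12V. In bulk tumours, fewer cells of a type and less RNA per cell cannot be told apart.

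Transcripts of the apolipoproteins Apoa1, Apoc2 and Apom rose in Myc/NrasG12V tumours, and the other 7 did not pass the test on the CPM scale. The 3 of 10 that passed were 5.99-fold, 3.64-fold and 15.7-fold higher, beside 39.5% of all tested genes called in either direction. None was called higher in Myc/Akt1 by limma, edgeR or DESeq2, where limma called 29.5% of tested genes. At an unadjusted p under 0.05 limma found 4 members, all with more in Myc/NrasG12V, and 0 with more in Myc/Akt1. With TMM factors 4 of the 10 were called, Apoc3 being the fourth, all higher in Myc/NrasG12V, beside 16.2% of tested genes called that way and 34.1% called either way. Apoa1, Apoc2 and Apom were also the members whose groups did not overlap in CPM, as 52.7% of tested genes did not, 14.8% with Myc/NrasG12V on top. The 10 log2 differences had a median of 0.59, and of 0.91 with TMM factors. With 10 members, 3 calls give no measure of whether apolipoproteins as a class stand apart from other genes.

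**Figure D1:**
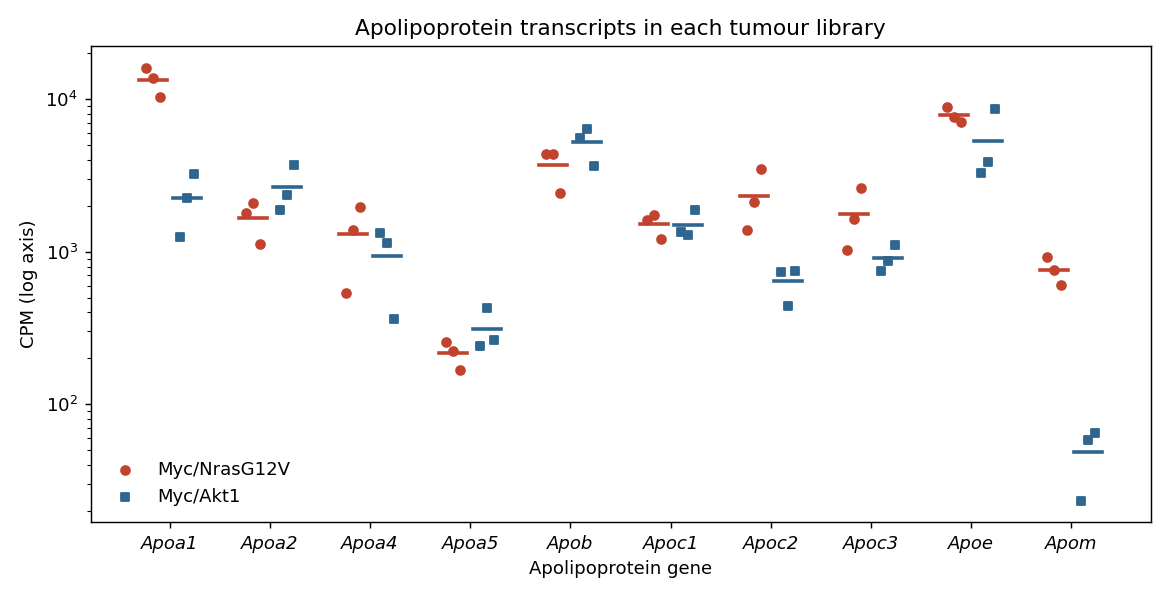
Level of each apolipoprotein gene in CPM on a log axis, with 1 point per library and a bar at the group mean (n = 3 each). Apoa1, Apoc2 and Apom have every Myc/NrasG12V library (circles) above every Myc/Akt1 library (squares), and the points of the other 7 genes overlap.

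**Figure D2:**
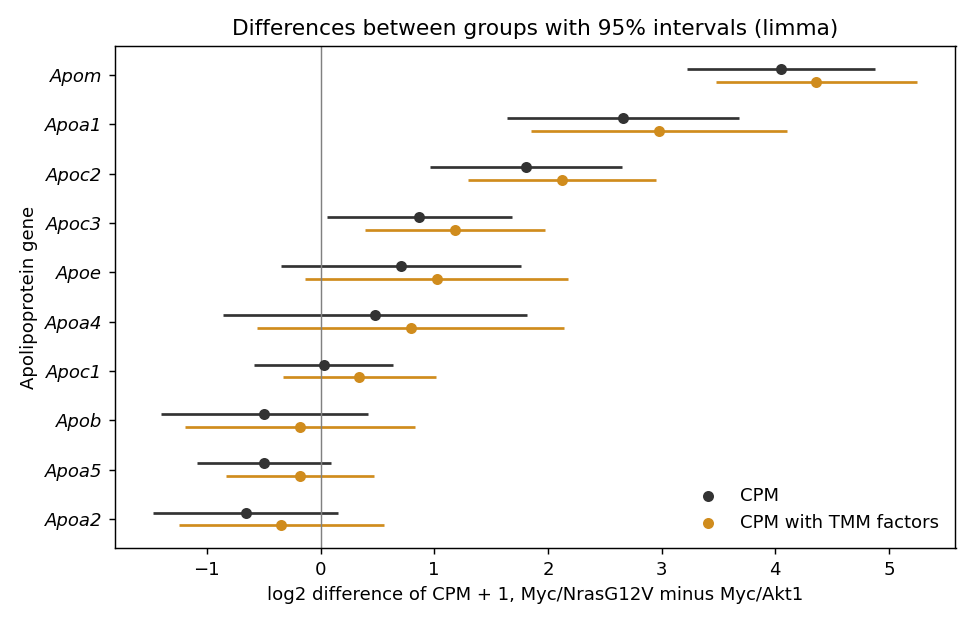
Log2 difference in CPM + 1, Myc/NrasG12V minus Myc/Akt1, with its 95% interval from limma, on the CPM scale and with TMM factors. The intervals of Apom, Apoa1 and Apoc2 lie wholly above 0, that of Apoc3 starts just above 0, and those of the other 6 genes hold 0.

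Among the HDL proteins, the scaffold gene Apoa1 rose in Myc/NrasG12V tumours and its partner Apoa2 did not pass the test. Apoa1 (ENSMUSG00000032083, chromosome 9, 46228580 to 46230466, plus strand, GRCm38) encodes ApoA-I, which takes up cholesterol from cells and activates the enzyme LCAT. It was at 16158, 13816 and 10305 CPM in Myc/NrasG12V libraries 1, 2 and 3 and at 1247, 2263 and 3216 CPM in Myc/Akt1 libraries 1, 2 and 3. The lowest Myc/NrasG12V library lay above the highest Myc/Akt1 library. The means were 13426 ± 2946 CPM in Myc/NrasG12V and 2242 ± 984 CPM in Myc/Akt1 (SD, n = 3 each), with a log2 difference of 2.66 (95% interval 1.64 to 3.68, limma adjusted p = 0.00223). Apoa1 ranked 5th of all genes by mean CPM in Myc/NrasG12V and 37th in Myc/Akt1.

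Apoa2 (ENSMUSG00000005681, chromosome 1, 171225054 to 171226379, plus strand) encodes ApoA-II, the second most abundant HDL protein. Its levels were 1784, 2074 and 1130.1 CPM in Myc/NrasG12V and 1880.0, 2368 and 3705 CPM in Myc/Akt1. Myc/Akt1 library 3 was the highest, and Myc/NrasG12V library 2 lay inside the Myc/Akt1 range. The log2 difference was -0.66 (-1.47 to 0.15, limma adjusted p = 0.173), which leaves room for a difference of more than 2-fold toward Myc/Akt1.

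Apom (ENSMUSG00000024391, chromosome 17, 35128997 to 35132050, minus strand) encodes ApoM, a lipocalin that carries sphingosine 1-phosphate on HDL. It was at 923, 764 and 603 CPM in Myc/NrasG12V and at 23.3, 57.9 and 64.7 CPM in Myc/Akt1. The groups stood far apart, and the lowest Myc/Akt1 value still rested on 549 reads. Apom averaged 763 ± 160.2 CPM in Myc/NrasG12V and 48.6 ± 22.2 CPM in Myc/Akt1 (SD, n = 3 each). Its log2 difference of 4.05 (95% interval 3.22 to 4.88, limma adjusted p = 1.47e-04) was the largest of the 10, and it ranked 116th of all genes in Myc/NrasG12V and 3699th in Myc/Akt1. Leaving out 1 library at a time kept its fold between 12.5 and 18.8.

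Apob, the gene of the very low density lipoprotein scaffold, did not pass the test. Apob (ENSMUSG00000020609, chromosome 12, 7977648 to 8016835, plus strand) was at 4396, 4376 and 2423 CPM in Myc/NrasG12V and at 5580.3, 6403 and 3649.9 CPM in Myc/Akt1. The library numbered 3 was the lowest in both groups, and the ranges overlapped. The log2 difference was -0.49 (-1.41 to 0.42, limma adjusted p = 0.358). With TMM factors it was -0.18.

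Of the regulators of lipoprotein lipase, the activator gene Apoc2 rose in Myc/NrasG12V. Apoc2 (ENSMUSG00000002992, chromosome 7, 19671579 to 19677941, minus strand) encodes ApoC-II, the cofactor without which the lipase does not work on triglyceride-rich particles. It was at 1389, 2121 and 3472 CPM in Myc/NrasG12V and at 735, 438 and 744 CPM in Myc/Akt1. Every Myc/NrasG12V library lay above every Myc/Akt1 library, with the widest gap in Myc/NrasG12V library 3. The means were 2327 ± 1057 CPM in Myc/NrasG12V and 639 ± 174 CPM in Myc/Akt1 (SD, n = 3 each), and the log2 difference was 1.80 (0.96 to 2.65, limma adjusted p = 0.00570). The annotation also holds Gm44805, which runs over Apoc2 on the same strand and is not among the genes of these files; whether reads shared with it entered the Apoc2 value is not known.

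Apoc3 (ENSMUSG00000032081, chromosome 9, 46232933 to 46235636, minus strand) encodes ApoC-III, which inhibits lipoprotein lipase and slows uptake of remnants by the liver. It was at 1019, 1645 and 2619.9 CPM in Myc/NrasG12V and at 743, 871 and 1109.8 CPM in Myc/Akt1. Myc/NrasG12V library 1 lay below Myc/Akt1 library 3, so the groups overlapped by that 1 pair. The means were 1762 ± 807 CPM in Myc/NrasG12V and 908 ± 186 CPM in Myc/Akt1 (SD, n = 3 each), a ratio of 1.94, with a log2 difference of 0.87 (0.06 to 1.68, limma adjusted p = 0.0825). The call depended on the setting: with TMM factors the log2 difference was 1.19 at a limma adjusted p of 0.0308. On the CPM scale the limma adjusted p was 0.0388 with the replicate number as a block and 0.0277 without Myc/NrasG12V library 1. It ran from 0.00103 to 0.229 over the 19 alternatives.

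Apoc1 and Apoa5 did not pass the test. Apoc1 (ENSMUSG00000040564, chromosome 7, 19689481 to 19692660, minus strand) encodes ApoC-I, which in humans inhibits the cholesteryl ester transfer protein and slows particle clearance. Its levels were 1608, 1752 and 1216 CPM in Myc/NrasG12V and 1350.4, 1286 and 1867 CPM in Myc/Akt1. Myc/NrasG12V library 3 was the lowest and Myc/Akt1 library 3 the highest, and the log2 difference was 0.03 (-0.58 to 0.64, limma adjusted p = 0.950). Apoa5 (ENSMUSG00000032079, chromosome 9, 46268633 to 46271919, plus strand) encodes ApoA-V, a scarce plasma protein that promotes triglyceride clearance. It was at 255, 223 and 169 CPM in Myc/NrasG12V and at 239.6, 430.0 and 263 CPM in Myc/Akt1. Myc/NrasG12V library 1 lay inside the Myc/Akt1 range, and the log2 difference was -0.50 (-1.09 to 0.10, limma adjusted p = 0.162).

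Apoe (ENSMUSG00000002985, chromosome 7, 19696109 to 19699188, minus strand) encodes ApoE, the ligand by which receptors take up remnants, made by hepatocytes and by macrophages. It was at 8856, 7657 and 7151 CPM in Myc/NrasG12V and at 3305, 3893 and 8676 CPM in Myc/Akt1. Myc/Akt1 library 3 stood at the level of the Myc/NrasG12V group, and the other 2 Myc/Akt1 libraries lay below it. The log2 difference was 0.71 (-0.35 to 1.76, limma adjusted p = 0.258), and the ratio of the means was 1.49 with all libraries and 2.19 without Myc/Akt1 library 3. DESeq2, which called 38.6% of tested genes, was the 1 alternative of 19 to call Apoe, at an adjusted p of 0.0475. Of 10 macrophage and Kupffer cell markers, none at 0, 2 (Clec4f and Marco) were called, both higher in Myc/NrasG12V; their summed levels ran from 319 to 516 CPM in Myc/NrasG12V and from 233 to 299 CPM in Myc/Akt1. Their sum was lowest in Myc/Akt1 library 3, where Apoe was highest in its group, and the part of these cells in the Apoe level was not tested.

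Apoa4 (ENSMUSG00000032080, chromosome 9, 46240696 to 46243459, plus strand) encodes ApoA-IV, an intestinal protein of chylomicrons and HDL that mouse liver also makes. It was at 538, 1398 and 1975 CPM in Myc/NrasG12V and at 1329, 1137 and 363 CPM in Myc/Akt1. The groups overlapped, and the highest library was 3.67 times the lowest in Myc/NrasG12V and 3.66 times in Myc/Akt1. The log2 difference was 0.48 (-0.86 to 1.81, limma adjusted p = 0.549), and it was -0.11 without Myc/Akt1 library 3. An antisense gene that overlaps Apoa4 in the annotation, Gm10680, had 0 reads in all 6 libraries.

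Apoa1 held a larger share of the apolipoprotein reads in every Myc/NrasG12V library than in any Myc/Akt1 library. The 10 genes together took 3.69, 3.58 and 3.11% of the reads in Myc/NrasG12V and 1.64, 1.91 and 2.37% in Myc/Akt1, so the groups did not overlap. This sum is a description and was not tested. Apoa1 alone made up 43.8, 38.6 and 33.2% of these apolipoprotein reads in Myc/NrasG12V and 7.59, 11.8 and 13.6% in Myc/Akt1. Apob made up 10.6 ± 2.46% in Myc/NrasG12V and 27.6 ± 10.6% in Myc/Akt1 (SD, n = 3 each). Without Apoa1 and Apoe, the other 8 genes took 1.33 ± 0.125% of all reads in Myc/NrasG12V and 1.22 ± 0.0677% in Myc/Akt1 (SD, n = 3 each).

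**Figure D3:**
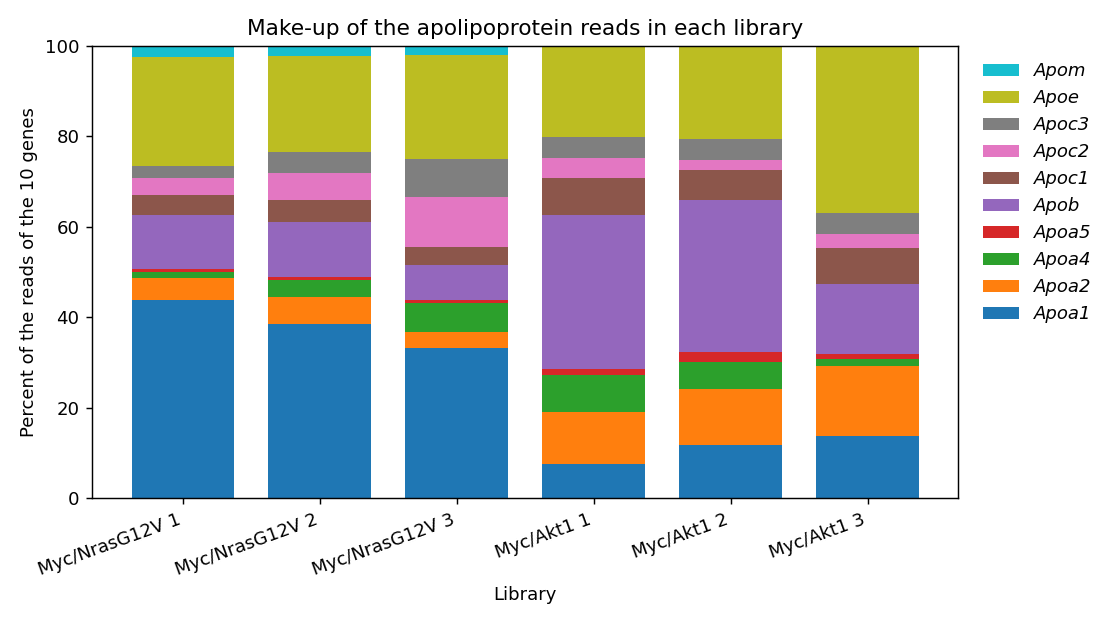
Percent of the reads of the 10 apolipoprotein genes that fell in each gene, with 1 bar per library and the Myc/NrasG12V libraries on the left. The Apoa1 segment at the base takes 33.2 to 43.8% in Myc/NrasG12V and 7.59 to 13.6% in Myc/Akt1.

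Ranked per length, in CPM per kilobase of exon, Apoa1 came first in all 3 Myc/NrasG12V libraries, at 13073, 11178 and 8337 CPM per kilobase. Apoa2 came first in all 3 Myc/Akt1 libraries, at 3501, 4411 and 6900.0 CPM per kilobase. At the other end, Apoa5 was the lowest member in all 3 Myc/NrasG12V libraries, at 66.9 to 101 CPM per kilobase. Apom was the lowest in all 3 Myc/Akt1 libraries, at 23.0 to 63.8 CPM per kilobase, below Apoa5 at 123 ± 41.2 (SD, n = 3). In Myc/NrasG12V the mean levels per kilobase ran, from high to low, Apoa1, Apoe, Apoa2, Apoc2, Apoc1, Apoc3, Apom, Apoa4, Apob and Apoa5. In Myc/Akt1 they ran Apoa2, Apoe, Apoc1, Apoa1, Apoc3, Apoc2, Apoa4, Apob, Apoa5 and Apom. The length counts each base in any annotated exon of a gene. It can exceed the length of the transcript made, so the orders may depend on this choice. Most neighbours in these orders overlapped between libraries. In Myc/NrasG12V, Apoa1 stood clear of Apoe (3345 to 4142 CPM per kilobase), Apoc3 (1005 to 2584) of Apom (595 to 912) and Apob (174 to 316) of Apoa5. In Myc/Akt1, Apob (262 to 459.6 CPM per kilobase) stood clear of Apoa5, and Apoa5 stood clear of Apom.

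Ratios of members within a library do not depend on the scaling of that library. Apoa1 over Apob in CPM, the HDL scaffold against the very low density scaffold, was 3.68, 3.16 and 4.25 in Myc/NrasG12V and 0.224, 0.353 and 0.881 in Myc/Akt1. Apoa1 reads thus outnumbered Apob reads in each Myc/NrasG12V library and were fewer in each Myc/Akt1 library, an 8.92-fold difference between the geometric means of the ratio. These ratios are not corrected for length, and Apob has 13.9 kilobases of exon against 1.24 for Apoa1. Per kilobase, Apoa1 lay above Apob in Myc/Akt1 too, at 1009, 1831 and 2602 CPM against 400, 460 and 262. Apom over Apob differed 23.9-fold and Apoc2 over Apob 4.93-fold, both higher in Myc/NrasG12V. Without Myc/NrasG12V library 3, Apoc2 over Apob differed 3.20-fold. Over Alb in place of Apob, the log2 difference of the ratio was 2.37 for Apom, 0.94 for Apoa1 and 0.09 for Apoc2. Apoc3 over Apoa1, a pair of neighbours 2466 bases apart, was 0.0631, 0.119 and 0.254 in Myc/NrasG12V and 0.596, 0.385 and 0.345 in Myc/Akt1. This ratio separated the groups and was 3.46-fold lower in Myc/NrasG12V. Apoc2 over Apoc1, neighbours on chromosome 7, was 0.864, 1.21 and 2.86 in Myc/NrasG12V and 0.544, 0.341 and 0.398 in Myc/Akt1. These were the 5 of 14 ratios whose groups did not overlap, each at an exact two-sided permutation p of 0.1, the smallest that 3 against 3 allows, and at 0.28 after Benjamini-Hochberg adjustment over the 14.

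Within the groups the members varied more than most genes averaging 100 CPM or more, which were not matched to them by level. Among 1511 genes averaging 100 CPM or more, the median within-group SD was 0.26 on the log2 scale. Apoa4 had an SD of 1.00, above 96.8% of these genes, and Apoc1 had 0.28, above 55.1%. The other 8 lay between 0.38 (Apoa5) and 0.60 (Apom). Myc/NrasG12V library 3 was the lowest of its group for Apoa1, Apoa2, Apoa5, Apob, Apoc1, Apoe and Apom and the highest for Apoa4, Apoc2 and Apoc3. Myc/Akt1 library 3 was the highest of its group for Apoa1, Apoa2, Apoc1, Apoc2, Apoc3, Apoe and Apom and the lowest for Apoa4 and Apob.

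Myc/NrasG12V library 3 also had the highest sums of erythroid and neutrophil markers. Most of the erythroid sum was Hbb-bs and Hba-a1. Single markers could differ: Slc4a1 was at 15.7 CPM in Myc/NrasG12V library 2 and 11.3 in library 3, and Csf3r at 11.1 and 11.0. The 6 tested erythroid markers summed to 232, 821 and 1480.5 CPM in Myc/NrasG12V and to 51.6, 45.9 and 88.6 CPM in Myc/Akt1, with 4 of 6 called higher in Myc/NrasG12V. The 7 neutrophil markers summed to 30.0, 69.5 and 196 CPM in Myc/NrasG12V and to 4.24, 3.12 and 3.36 CPM in Myc/Akt1, with 6 of 7 called higher in Myc/NrasG12V. The T and NK cell markers, 3 of 4 tested called higher in Myc/NrasG12V, were instead highest in Myc/NrasG12V library 1, with sums over all 5 listed of 24.1, 8.49 and 9.12 CPM in Myc/NrasG12V and of 2.04, 2.98 and 4.18 CPM in Myc/Akt1. None of these markers was at 0 in every library. Apoc2, Apoc3 and Apoa4 had the same order of Myc/NrasG12V libraries as the erythroid and neutrophil sums, and the part of these cells in their levels was not tested. Without Myc/NrasG12V library 3, Apoc2 was still 2.75-fold higher and Apoc3 1.47-fold.

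**Figure D4:**
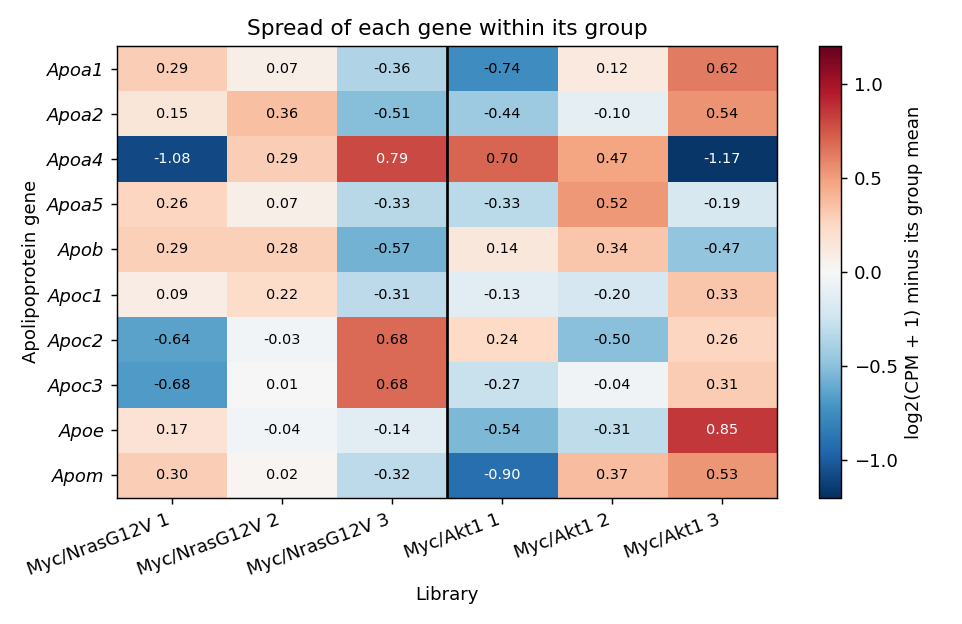
Deviation of each gene from its group mean, in log2(CPM + 1), with the Myc/NrasG12V libraries left of the line and the Myc/Akt1 libraries right of it. Red is above and blue below the group mean; in the column of Myc/NrasG12V library 3, Apoa4, Apoc2 and Apoc3 are above it and the other 7 genes below.

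For each member, the non-member of at least 50 CPM whose profile over the 6 libraries was most like it was found among 3297 genes by the root mean square difference of centred log2(CPM + 1). Apob and Ipo7, an importin, were closest, at 0.08. Apoa1 was nearest to F11, the gene of coagulation factor XI, at 0.14: F11 was at 184, 203 and 137 CPM in Myc/NrasG12V and at 17.6, 33.4 and 41.7 CPM in Myc/Akt1. Apoc2 was nearest to Mt1, a metallothionein, at 0.28, and Apoe to Rarres2, which encodes the adipokine chemerin, at 0.17. Apoc1 was nearest to Prg4 (0.10), Apoa2 to Maged1 (0.14), Apoa5 to Kdm5c (0.15) and Apoc3 to Kansl3 (0.19). Apoa4 had no near match, with Insig2 closest at 0.45, nor had Apom, with the unnamed gene ENSMUSG00000091166 closest at 0.39. Between members, Apoa5 and Apob were most alike at 0.27, and Apoa1 and Apom were each other's nearest member at 0.71. Many non-members were nearer. Placed among the 3297 genes, Apob came 92nd for Apoa5, and Apoa5 113th for Apob. Apom came 74th for Apoa1, and Apoa1 14th for Apom. These likenesses rest on 6 libraries in 2 clusters and are a description.

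Among 17 other tested genes named as apolipoproteins or carried on HDL, 2 rose in Myc/NrasG12V, 6 were lower and 9 did not pass the test, with a median log2 difference of -0.92. With TMM factors 3 were higher and 6 lower, beside 2331 and 2565 of the 14365 tested genes. On the CPM scale the share of the list that was lower was near the 29.5% of all tested genes. The median log2 difference of the list was -0.61 with TMM factors, and by CPM it was -0.35 without Myc/NrasG12V library 3. Leaving out 1 library at a time left 1 to 2 higher and 6 to 7 lower, with 1 higher without Myc/NrasG12V library 2, without Myc/Akt1 library 1 or without Myc/Akt1 library 2. Apol7a, of the ApoL family, fell to 14.1 ± 6.08 CPM in Myc/NrasG12V, against 106.7 ± 13.5 CPM in Myc/Akt1 (SD, n = 3 each, limma adjusted p = 3.20e-04). Saa2, an acute phase protein of HDL, fell to 9.03 ± 6.92 CPM in Myc/NrasG12V, against 80.5 ± 27.6 CPM in Myc/Akt1 (limma adjusted p = 0.00195). It was 8.92-fold lower, or 14.7-fold without the Myc/NrasG12V library 2. Apool, of the mitochondrial inner membrane, was 3.05-fold lower in Myc/NrasG12V. Apol11b was called higher in Myc/NrasG12V, but at 1.29 to 2.71 CPM in Myc/NrasG12V and 0 to 0.0718 CPM in Myc/Akt1 the size of its change was imprecise. Apoc4, the neighbour of Apoc2 and chosen after its values were seen, was at 252, 234 and 277 CPM in Myc/NrasG12V and at 238, 236 and 364 CPM in Myc/Akt1, with a log2 difference of -0.11 (-0.59 to 0.37, limma adjusted p = 0.712).

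Genes near the members showed no log2 difference as large as that of Apoa1, Apoc2 or Apom. Of 27 tested genes flanking the 10, 2 rose in Myc/NrasG12V, 6 were lower and 19 did not pass the test, with a median log2 difference of -0.05 and the largest at -1.42 (Ldah). The 2 that rose, Bud13 and Zpr1 on the Apoa5 side of its cluster, were named after their values were seen. Leaving out Myc/NrasG12V library 2 left 2 flanking genes higher. Leaving out any other library left 0 higher, so neither Bud13 nor Zpr1 was called in those fits. The fits that left out 1 library left 4 to 5 lower. The gene nearest Apom on the list, Bag6, at 3.127 kilobases, was at 116, 110.1 and 111 CPM in Myc/NrasG12V and at 95.7, 115 and 113 CPM in Myc/Akt1. Sik3, 4.385 kilobases from Apoa1, was at 74.5, 59.7 and 72.5 CPM in Myc/NrasG12V and at 67.1, 76.0 and 59.8 CPM in Myc/Akt1. The log2 differences of these neighbours, which were chosen after their values were seen, were 0.07 (-0.28 to 0.41) and 0.03 (-0.36 to 0.42), at limma adjusted p of 0.758 and 0.916. The called flanking genes of lowest adjusted p included Sdhc, a respiratory chain gene near Apoa2, Bcl3 on the Apoe side of its cluster and Ldah, 191 kilobases from Apob, 2.07-fold to 2.85-fold lower in Myc/NrasG12V.

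Of 16 genes of lipoprotein assembly and secretion, 1 rose, 5 were lower and 10 did not pass the test, with a median log2 difference of -0.55. The share that were lower was near the 29.5% of all tested genes. With TMM factors 4 were higher and 1 lower, beside 16.2% and 17.9% of all tested genes. Without Myc/Akt1 library 1, or without Myc/Akt1 library 2, 2 were lower, against 4 to 6 without any other library. Sort1, a sorting receptor that binds ApoB in the Golgi, averaged 27.7 ± 5.32 CPM in Myc/NrasG12V and 9.98 ± 1.13 CPM in Myc/Akt1 (SD, n = 3 each, limma adjusted p = 0.00143). Cideb, which helps to lipidate the particle, averaged 9.98 ± 4.90 CPM in Myc/NrasG12V and 30.5 ± 4.41 CPM in Myc/Akt1 (SD, n = 3 each, limma adjusted p = 0.00735). Sar1b, of the vesicles that carry it, was 2.14-fold lower, and A1cf, a cofactor of Apob mRNA editing, 3.51-fold lower, and neither was called with TMM factors. A1cf was also not called without Myc/Akt1 library 1 or without Myc/Akt1 library 2. Mttp, which transfers lipid onto ApoB, was at 334, 381 and 279.6 CPM in Myc/NrasG12V and at 553, 540.4 and 413 CPM in Myc/Akt1, at a limma adjusted p of 0.0456 that ran from 0.0267 to 0.442 over the alternatives and passed in 5 of 19. Of the fits that left out a library, Mttp was called in 1, that without Myc/Akt1 library 3.

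Among 14 genes of plasma lipases and particle remodelling, 3 rose in Myc/NrasG12V, 7 were lower and 4 did not pass the test. Their median log2 difference was -0.40. Of all 14365 tested genes, 1437 rose and 4240 (29.5%) were lower. With TMM factors 3 of the 14 rose and 4 were lower, beside 16.2% and 17.9% of all tested genes. Whether the list differs from all tested genes was not tested. Leaving out 1 library at a time left 1 to 2 higher and 4 to 8 lower, with 1 higher without Myc/NrasG12V library 2, without Myc/Akt1 library 1 or without Myc/Akt1 library 2, and 4 lower without Myc/Akt1 library 1. Lipg, endothelial lipase, which digests HDL phospholipid, was at 0.239, 0.597 and 0.671 CPM in Myc/NrasG12V and at 11.2, 12.8 and 12.8 CPM in Myc/Akt1 (limma adjusted p = 5.39e-05). Its groups were far apart, 24.5-fold by their means. Pon1, an HDL-bound esterase, was 8.45-fold lower in Myc/NrasG12V, Pltp, the phospholipid transfer protein, 4.46-fold, and Lipc, hepatic lipase, 3.99-fold. Furin, which cleaves lipases and their regulators, was 2.35-fold higher. Lcat, the enzyme that ApoA-I activates, was at 148, 172 and 193 CPM in Myc/NrasG12V and at 149.8, 202 and 209 CPM in Myc/Akt1, with a log2 difference of -0.12 (-0.56 to 0.32, limma adjusted p = 0.650).

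Of 16 tested receptor and efflux genes, 5 rose in Myc/NrasG12V, 2 were lower and 9 did not pass the test, with a median log2 difference of 0.49, and with TMM factors 8 rose and 0 were lower (10 and 1 at an unadjusted p under 0.05). Without Myc/Akt1 library 1, 2 rose and 0 were lower. Leaving out another library left 3 to 6 that rose and 1 to 3 lower. Scarb1, the HDL receptor that takes up cholesteryl ester, was at 335, 336 and 262 CPM in Myc/NrasG12V and at 109, 134 and 110.4 CPM in Myc/Akt1, 2.64-fold higher (limma adjusted p = 6.18e-04). Sdc1, a proteoglycan that takes up remnants, was 1.51-fold lower. It was not called with TMM factors, nor without Myc/Akt1 library 1 or without Myc/Akt1 library 2.

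Of 28 transcription factors that bind or regulate apolipoprotein genes, 2 rose in Myc/NrasG12V, 4 were lower and 22 did not pass the test. Their median log2 difference was -0.22. The share that were lower was below the 29.5% of all tested genes. With TMM factors 2 of the 28 rose and 2 were lower, beside 16.2% and 17.9% of all tested genes. Leaving out 1 library at a time left 1 to 2 that rose and 2 to 4 lower, with 2 lower without Myc/Akt1 library 2. Nr1h4, the bile acid receptor FXR, was at 59.5, 48.8 and 33.8 CPM in Myc/NrasG12V and at 173, 219 and 218 CPM in Myc/Akt1, 4.30-fold lower (limma adjusted p = 2.90e-04). Nr1h3, the oxysterol receptor LXR alpha, was 2.21-fold lower. Nr5a2, which encodes LRH-1, was 1.97-fold lower on the CPM scale and not called with TMM factors, nor without Myc/NrasG12V library 1, Myc/Akt1 library 1 or Myc/Akt1 library 2. Foxa3, a forkhead factor of liver, was 3.34-fold higher, at 62.7, 79.4 and 84.3 CPM in Myc/NrasG12V and 15.5, 21.1 and 31.3 CPM in Myc/Akt1 (limma adjusted p = 0.00126). Hnf4a, a main activator of these genes, was at 624, 576 and 683 CPM in Myc/NrasG12V and at 634, 704 and 465 CPM in Myc/Akt1, with a log2 difference of 0.08 (-0.41 to 0.57, limma adjusted p = 0.792).

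Other plasma proteins of hepatocytes were a larger group with the direction of Apoa1: 14 of 24 rose in Myc/NrasG12V, 0 were lower and 10 did not pass the test, with a median log2 difference of 1.54. At an unadjusted p under 0.05 limma found 15 higher and 1 lower, and edgeR and DESeq2 each called 16 higher and 0 lower. Serpina1b, an alpha-1 antitrypsin gene whose near-identical copies can share reads, was 8.27-fold higher, and Serpina1a 6.92-fold. Trf, the iron carrier transferrin, was 5.85-fold higher, and Itih3, of the inter-alpha inhibitor family, 3.55-fold. Against this list, Apom lay above its largest log2 difference of 3.07 and the other 9 apolipoproteins below it.

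**Figure D5:**
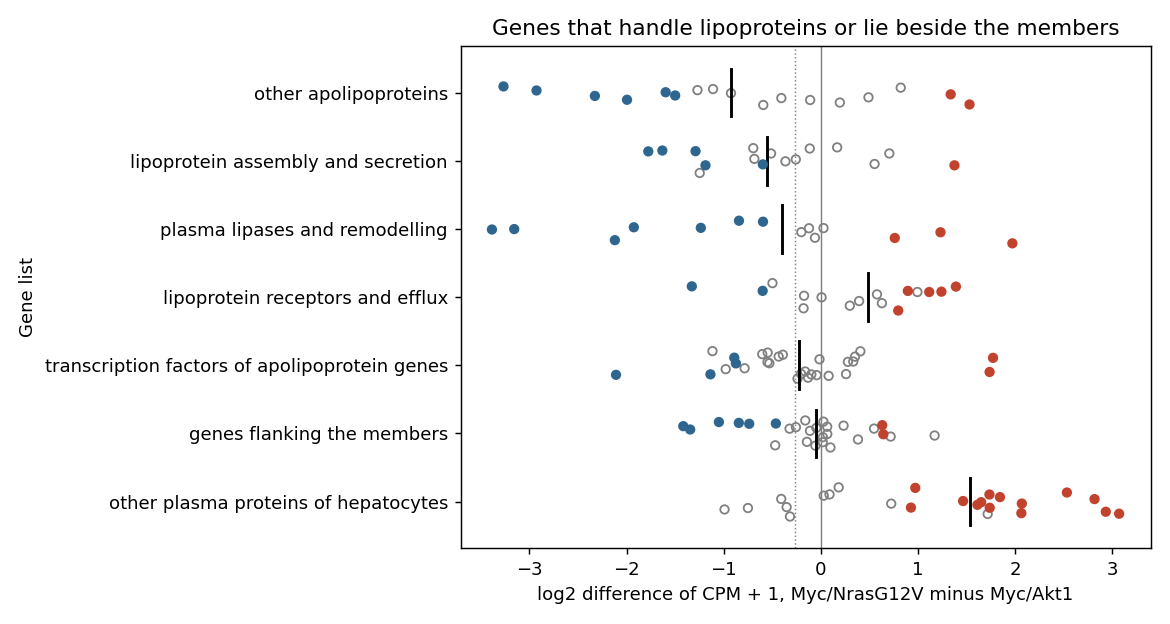
Log2 difference in CPM + 1, Myc/NrasG12V minus Myc/Akt1, of each tested gene in 7 lists, with filled points called by limma (red higher, blue lower in Myc/NrasG12V), open points not called and black bars at the list medians. The dotted line is the all-gene median of -0.26. The plasma proteins sit furthest right, with a median of 1.54, and the other apolipoproteins furthest left, with a median of -0.92. Without Myc/NrasG12V library 3, a fit not drawn, the median of the other apolipoproteins was -0.35. The plasma lipases were then furthest left, at -0.62.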

How the data were processed

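Stranded single-end libraries had been made from poly(A) RNA of 6 tumour samples. The deposited values are CPM, per the file headers under the name reads, and sum to 1000000 in each library. Per the submitters' processing notes, the build was GRCm38 and the tools were edgeR 3.22.5, Subread 1.6.3 and STAR 2.6.1c. How multi-mapped reads and strand were treated, and with which annotation, is not given in the sources used here. Whole reads were recovered for 100% of values within 0.01 read, and edgeR on them, as an alternative, called 4893 genes.

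Genes passing filterByExpr, 14365 of 39179, were compared with limma 3.58.1 (trend, two-sided, R 4.3.3) on log2(CPM + 1), since the files held normalized values, with Benjamini-Hochberg adjustment at 0.05. A fold is a ratio of mean CPM; a log2 difference carries the pseudocount, which understates the change of low genes. Coordinates, exon lengths and gene overlaps are from GENCODE M21 (GRCm38). Other tools were edgeR 4.0.16 and DESeq2 1.42.0. The procedure was also run on simulated counts in which few genes changed, in both directions, so that run does not bear on the scaling. Alternatives changed the scaling, the filter, the pseudocount or the test, left out 1 library at a time, or took the replicate number as a block; limma without a trend was added after the data had been seen.

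The members and the gene lists were chosen with earlier results of these data known. All 10 members are named; of each pathway list, the 4 called genes of lowest adjusted p and any called one of Mttp, Lcat, Lipc and Hnf4a; some other genes under that rule are not reported here. Other names were chosen after their values were seen.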

Additional observations from a re-analysis of the deposited data

How the results depend on the processing

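Apoa1, Apoc2 and Apom were called higher in Myc/NrasG12V under all 19 alternatives, with log2 differences of 2.29 to 3.03 for Apoa1, 1.47 to 2.17 for Apoc2 and 3.60 to 4.42 for Apom. Of the other members, 5 were called under none. The exceptions were Apoe, called with DESeq2 alone (0.90), and Apoc3, called with TMM factors (1.19, with or without a trend), median-of-ratios factors (1.19), upper-quartile factors (1.24), edgeR (1.25), DESeq2 (1.25) and the replicate block (0.87); DESeq2 called 5 members in all, all 5 higher in Myc/NrasG12V.

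Leaving out 1 library at a time moved the log2 difference of Apoc3 between 0.53 and 1.21, with a call without Myc/NrasG12V replicate 1. It moved Apoc1 between -0.082 and 0.19 and Apoa4 between -0.11 and 1.02, both across 0. Among ratios, log2 differences ran from -0.45 to 0.34 for Apoa2 over Apob, from -0.24 to 0.14 for Apoa5 over Apob and from -1.13 to 0.091 for Apoa4 over Apoc3. With Alb in place of Apob as denominator, the log2 difference was -1.24 for Apoa4, -1.69 for Apoc1, -0.85 for Apoc3 and -1.01 for Apoe, each opposite to its ratio over Apob. It was -2.38 for Apoa2 and -2.22 for Apoa5, with their sign over Apob, as were 0.94 for Apoa1, 0.09 for Apoc2 and 2.37 for Apom; Alb was itself 3.30-fold higher in Myc/NrasG12V by CPM.

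Whether the replicate numbers pair the samples is not known. Deviations from the group means correlated at -0.08, 0.11 and 0.08 between same-numbered libraries and at -0.14 to 0.09 between the others. With 3 libraries per group these correlations cannot settle it. The block called 5530 genes, against 5677 without it.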
